A study of Mus musculus with 8 samples.

Results

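Scavenger receptor genes were chosen by name: Cd36, Msr1, Marco, Scarb1, Scarb2, Cd68, Stab1, Olr1, Mrc1 and Lrp1. All probes whose platform annotation carries one of these 10 symbols were taken, which gave 10 probes for 9 genes, out of 25697 probes and 16593 named genes in all. The annotation used here lists no probe for Cd68, which was therefore not analysed here. Olr1 has 2 probes and each of the other 8 genes has 1.

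RNA was measured on 8 single-colour Illumina mouse arrays, each from 1 well of macrophages derived from C57BL/6 mouse bone marrow, grown for 7 days with 15% L929-conditioned medium in DMEM with 10% serum and then kept for 12 hours without the conditioned medium. Wells received rat islet amyloid polypeptide (IAPP, 4 wells) or human IAPP (4 wells) for 12 hours, at 15 µM by the sample titles and the series' design, although the treatment protocol writes this figure in millimolar. IAPP, or amylin, is a peptide hormone of pancreatic beta cells; the human form aggregates into amyloid and the rat form does not readily do so, which makes it the control. Every difference below is relative to rat IAPP, since no untreated wells are among the samples, and aggregation and peptide sequence cannot be told apart. The labels mark no separate animals or cultures, so p-values reflect only how far wells differ, and that spread may be technical.

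Scavenger receptors are structurally unrelated membrane proteins that bind modified lipoproteins, polyanions, microbial surfaces, dying cells and aggregated proteins. Macrophages use them for endocytosis and phagocytosis. CD36, a class B member, is known to bind amyloid and to take part in inflammasome responses to particulate ligands, amylin among them. The question here is whether the genes of these receptors differed in level between wells given the aggregating and the control peptide.

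Among the 10 probes, 5 were detected on enough arrays to be tested, and they gave 3 patterns. Stab1, which encodes the endocytic receptor stabilin-1, and Scarb2, which encodes the lysosomal membrane protein LIMP-2, were lower with human IAPP, 1.56-fold and 1.42-fold. Lrp1, which encodes a large endocytic receptor of the LDL receptor family, was 1.21-fold higher, a call that several alternatives ended. Mrc1, the mannose receptor gene, and Marco, a class A receptor gene, did not pass the test. The probes for Cd36, Msr1 and Olr1 were not detected on any array and that for Scarb1 on only 1. The 2 genes that were lower and the 1 that was higher stand beside a background in which 54.4% of the 11451 tested probes passed, 24.5% higher and 29.9% lower. At such a background, 3 calls among 5 tested probes are near the share found over all probes.

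For the 2 genes that were lower together, the 250 bases before the start given in the RefSeq promoter table of build GRCm38.p6 are shown, so that a reader can see what sequence lies there. That table has an entry for 8 of the 10 genes. For Scarb2 this start is the outer end of the annotated gene, while for Stab1 it lies inside that end, so that the last 10 bases of the Stab1 window belong to the annotated gene. Capitals mark GAGGAA, the core of sites bound by PU.1, the macrophage lineage factor, searched on both strands. The Stab1 window lies at chr14:31168642-31168891 on the minus strand and the Scarb2 window at chr5:92505658-92505907 on the minus strand.
Stab1: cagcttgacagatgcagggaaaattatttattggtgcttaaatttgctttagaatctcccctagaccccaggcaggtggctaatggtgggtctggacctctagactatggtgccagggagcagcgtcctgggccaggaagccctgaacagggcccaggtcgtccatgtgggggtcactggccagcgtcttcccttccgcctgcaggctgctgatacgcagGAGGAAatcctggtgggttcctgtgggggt
Scarb2: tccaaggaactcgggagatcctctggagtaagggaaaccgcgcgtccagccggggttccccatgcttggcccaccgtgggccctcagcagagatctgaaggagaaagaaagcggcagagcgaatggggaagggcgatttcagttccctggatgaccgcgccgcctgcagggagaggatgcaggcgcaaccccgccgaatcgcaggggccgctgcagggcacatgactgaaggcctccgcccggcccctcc
The Stab1 window holds 1 such core, which begins 30 bases before the start of the table, and the Scarb2 window holds none. Over all 32851 windows of this length 23.3% hold GAGGAA on either strand. Neither window holds the E-box CACGTG (6.0% of all windows) or the AP-1 motif TGANTCA (6.7%), on either strand. Among the other 6 windows, that of Mrc1 holds 3 GAGGAA cores, those of Marco, Olr1 and Cd68 hold 1 each, and those of Cd36 and Lrp1 hold none. The Cd36 window lies wholly inside the annotated gene, and the last 185 bases of the Olr1 window lie inside its gene. The AP-1 motif occurs once in the Olr1 window and at 2 places in the Cd68 window, and the E-box in none of the 8. A match is a description of letters and not a binding site.

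Values were corrected for background, normalised between arrays and put on the log2 scale, on which 1 unit is a doubling. A probe was tested when its detection p, which places its signal among those of the array's negative controls, was under 0.05 on at least 4 of the 8 arrays. Calls are limma tests with Benjamini-Hochberg adjustment, at a threshold of 0.05. Adjustment ran over all tested probes for the members and for further probes of a gene. Companion genes and cell markers, each read by its brightest tested probe, had a separate fit adjusted over all tested genes. Rat arrays 1 to 3 were brighter, with a mean raw signal of 1523 to 1967 intensity units, against 1180 on rat array 4 and 1144 to 1368 on the human arrays. The part of this difference in the results below was not tested, other than by setting the human arrays against rat array 4 alone. In bulk RNA, fewer cells of a type and less RNA per cell cannot be told apart. All 7 macrophage markers that have a probe were detected on every array. For other cells, markers with a probe were counted when at least 1 array detected them. These were 3 of 6 for neutrophils, 1 of 5 for dendritic cells, 1 of 6 for fibroblasts and 0 of 5 for lymphocytes. For endothelium they were 3 of 4 and for mast cells or basophils 2 of 4. A probe at background can pass a threshold of 0.05 on 1 of 8 arrays by chance. Only 2 neutrophil genes and 1 dendritic cell gene were detected on enough arrays to be tested, and 0 genes of the other 4 lists.

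Scarb2 encodes a class B protein that sits in the lysosomal membrane and carries beta-glucocerebrosidase to the lysosome. Its log2 intensities were 11.47, 11.59, 11.42 and 11.54 on rat arrays 1 to 4 and 11.09, 10.97, 10.9975 and 10.93 on human arrays 1 to 4. Every human array lay below every rat array, and the arrays within a group lay close together. The level fell from 11.51 ± 0.077 to 10.998 ± 0.068 (SD, n = 4 per group), a log2 difference of -0.51 (SE 0.074, 95% interval -0.67 to -0.34, limma adjusted p = 0.00036). Groups that do not overlap were found for 49.9% of all tested probes, with the human arrays below in 27.6%. Raw signals were also separate, from 2599 to 4792 units with rat IAPP and from 1689 to 2208 with human IAPP. An exact permutation test over the 70 splits of the arrays gave a two-sided p = 0.0286, the smallest it can give with 4 arrays a group.

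Stab1 encodes a receptor that takes up acetylated LDL and the matrix protein SPARC and recognises dying cells. Its log2 intensities were 10.997, 11.20, 10.78 and 11.24 on rat arrays 1 to 4 and 10.50, 10.47, 10.47 and 10.23 on human arrays 1 to 4. The groups did not overlap, and human array 4 lay below the other human arrays. The mean fell from 11.06 ± 0.21 to 10.42 ± 0.13 (SD, n = 4 per group), a log2 difference of -0.64 (SE 0.12, 95% interval -0.90 to -0.38, limma adjusted p = 0.0013). Raw signals ran from 2163 to 3245 units with rat IAPP and from 1136 to 1614 with human IAPP. The exact two-sided permutation p was again 0.0286, the value of every probe whose groups do not overlap, Lrp1 included. Against rat array 4 alone, whose mean signal lies within the range of the human arrays, the difference was -0.84 for Stab1 and -0.56 for Scarb2 (limma adjusted p = 0.0054 and 0.011). That fit has 1 rat array, which is assumed to vary as the human arrays do. Rat array 4 was also the array least like its own group. Its median correlation with the other rat arrays was 0.985, against 0.992 to 0.995 within the group for all other arrays. In every alternative run, 2 member probes were lower, and these log2 differences lay between -1.05 and -0.47 for Stab1 and between -0.89 and -0.35 for Scarb2.

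**Figure D1:**
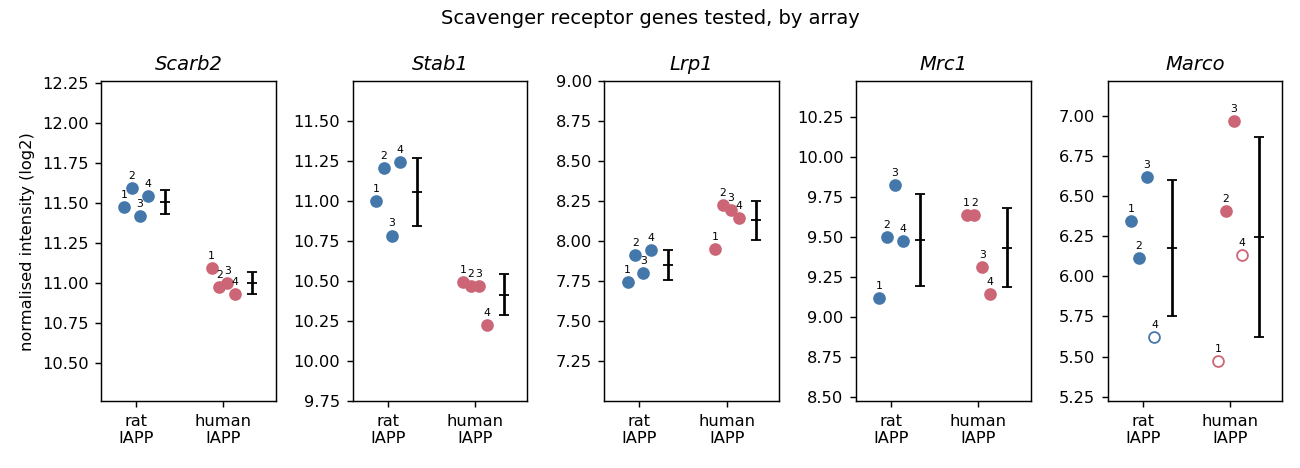
Normalised log2 intensity of the 5 tested scavenger receptor probes, 1 point per array with its replicate number, filled where the detection p was under 0.05; bars give the mean and SD of 4 arrays, and each panel spans the same log2 range. The human arrays lie below all rat arrays for Scarb2 and Stab1, just above them for Lrp1, and among them for Mrc1 and Marco.

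Lrp1 encodes a receptor that takes up alpha-2-macroglobulin and apolipoprotein E-rich particles. Its log2 intensities were 7.75, 7.91, 7.80 and 7.95 on rat arrays 1 to 4 and 7.95, 8.23, 8.20 and 8.15 on human arrays 1 to 4. The groups, which were separate with the human arrays above in 22.3% of all tested probes, were so here only by the third decimal, since rat array 4 read 7.948 and human array 1 read 7.951. The mean was 7.85 ± 0.094 with rat IAPP and 8.13 ± 0.12 with human IAPP (SD, n = 4 per group), a log2 difference of 0.28 (SE 0.088, 95% interval 0.080 to 0.48, limma adjusted p = 0.023). Raw signals went the other way, with a mean of 583 units for rat IAPP and 514 for human IAPP, and overlapped (495 to 696 against 477 to 555). With arrays scaled to a common median the difference was -0.15, while the median of all probes moved to -0.39 in that setting, so that Lrp1 lay 0.24 above that median. The call was lost against rat array 4 alone (0.18, adjusted p = 0.33), without background correction (0.13, adjusted p = 0.059), with no filter on detection (adjusted p = 0.063), with a variance trend and robust prior (adjusted p = 0.059) and on leaving out rat array 1 or 3 or human array 2, 3 or 4 (0.24 to 0.27, adjusted p from 0.053 to 0.065).

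Mrc1 encodes the mannose receptor CD206, which binds mannosylated glycoproteins and is a common marker of alternatively activated macrophages. Its log2 intensities were 9.12, 9.50, 9.82 and 9.47 on rat arrays 1 to 4 and 9.64, 9.64, 9.31 and 9.15 on human arrays 1 to 4. The groups covered nearly the same range, with the lowest and the highest values both on rat arrays. The difference of -0.047 (SE 0.16, limma adjusted p = 0.83) has a 95% interval from -0.42 to 0.32.

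Marco encodes a trimeric class A receptor with a collagen-like stalk that binds bacteria and inhaled particles. Its log2 intensities were 6.35, 6.11, 6.62 and 5.62 on rat arrays 1 to 4 and 5.47, 6.41, 6.97 and 6.13 on human arrays 1 to 4. It was detected on rat arrays 1 to 3 and human arrays 2 and 3, and its spread exceeded any difference between groups. The difference was 0.068 (SE 0.31, limma adjusted p = 0.87), with a 95% interval from -0.62 to 0.76. Leaving out rat array 4 or human array 3 turned its sign (-0.12 and -0.17), without a call.

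**Figure D2:**
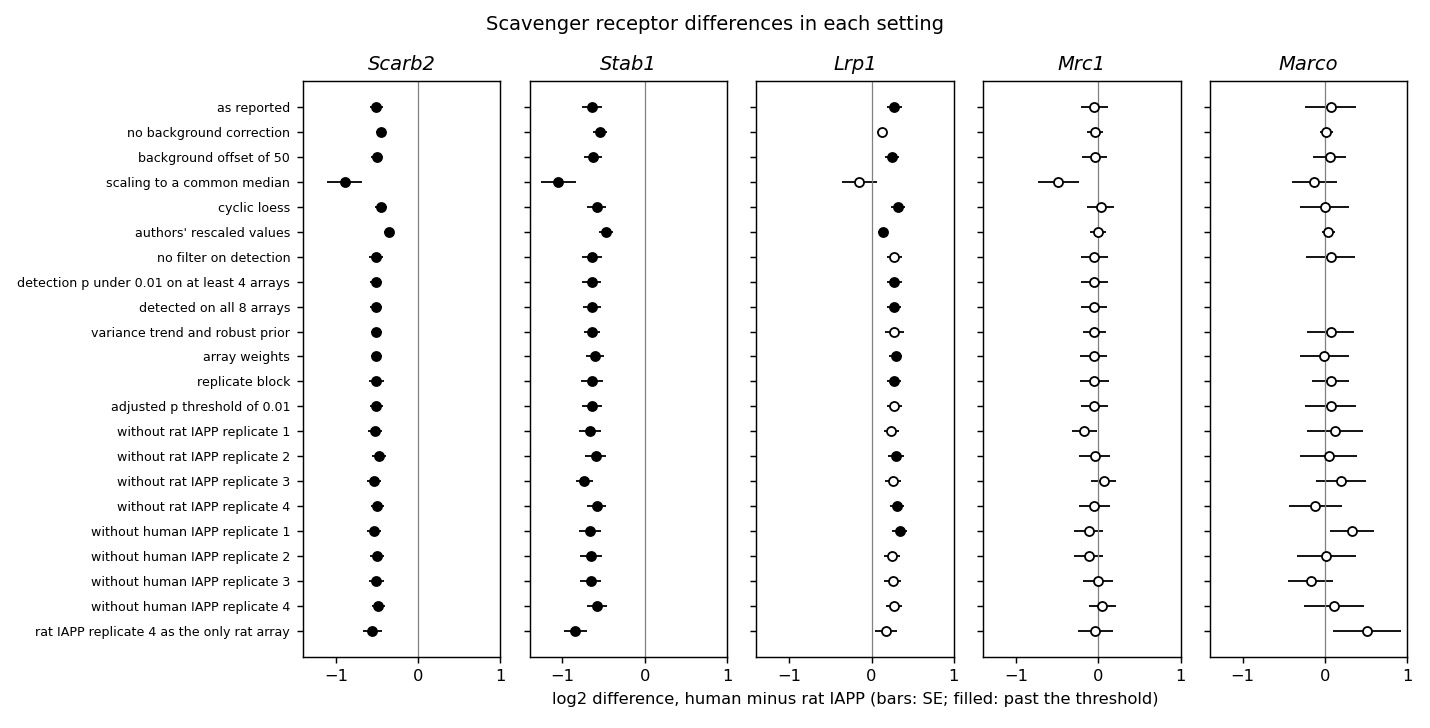
Log2 difference between human and rat IAPP for each tested probe (horizontal axis) in each processing setting (rows), with its SE and filled points past the threshold. Scarb2 and Stab1 stay filled and below 0 in all rows, Lrp1 loses its call in 11 of them, and Marco has no value in the rows whose stricter detection filters remove it.

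Probes for the other receptors lay near the level of the negative controls, with 1 detection in all, for Scarb1. Cd36 encodes the fatty acid and oxidised LDL receptor. Its raw signals were 315.3, 331.9, 364.3 and 294.5 units on rat arrays 1 to 4 and 308.4, 302.3, 281.3 and 303.9 on human arrays 1 to 4. Each of these signals lay below the lowest detected signal of its array, which ran from 334.6 to 400.6 units, and the detection p was between 0.30 and 0.75. With no filter on detection the log2 difference of this probe was -0.0034 (SE 0.12, 95% interval -0.28 to 0.27, limma adjusted p = 0.99).

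Msr1, the class A receptor gene known for uptake of acetylated LDL, gave raw signals from 287.8 to 321.4 units with rat IAPP and from 280.2 to 297.6 with human IAPP, with detection p from 0.43 to 0.84. Olr1 encodes LOX-1, an oxidised LDL receptor first described in endothelium. Its probes read 319.9 to 377.4 and 269.6 to 323.7 units, and the first came closest to detection on human array 1, at 365.6 units and a detection value of 0.056. Scarb1 encodes SR-BI, the HDL receptor. Its probe was detected on rat array 1, at 380.1 units and a detection value of 0.0038, and on none of the other arrays, where that value ran from 0.061 to 0.20. With no filter, the log2 differences of these 4 probes lay between 0.037 and 0.19, with limma adjusted p from 0.47 to 0.88. An undetected probe says that its signal was not separable from the array's background, not that the gene was silent. Whether the undetected probes match their transcripts could not be checked here, since no probe sequences were at hand.

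**Figure D3:**
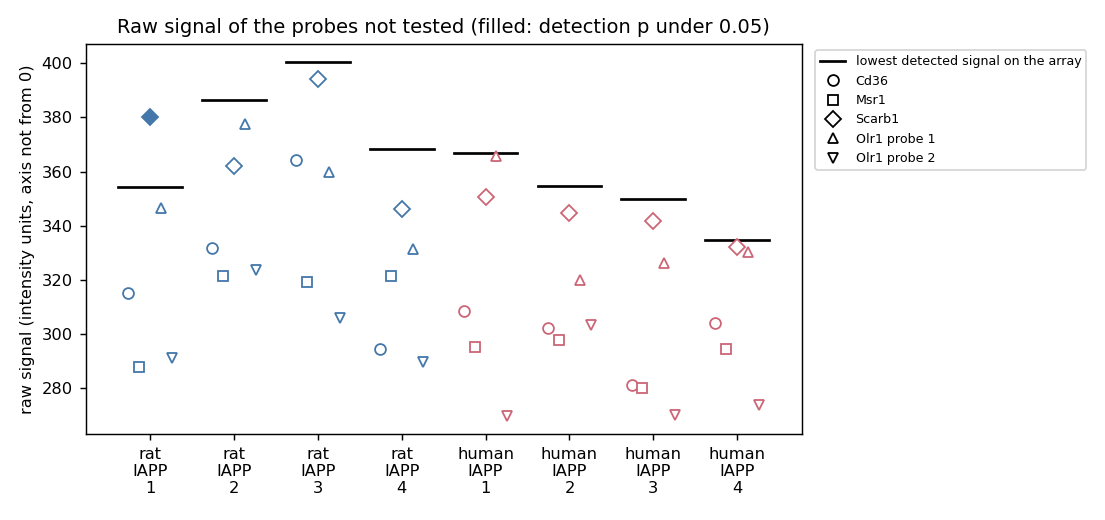
Raw signal in intensity units (vertical axis, not from 0) of the 5 scavenger receptor probes that were not tested, on each of the 8 arrays, with the lowest detected signal of each array as a line. The filled Scarb1 point on rat array 1 is the only one above its line; the Cd36 and Msr1 points lie below the line on every array.

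Other genes of the same system were read from 5 companion lists, each gene by its brightest tested probe. Of 62 companion genes with a probe, 42 were tested, 14 were higher and 15 lower with human IAPP. Over all 7809 tested genes, 56.4% passed, 23.8% higher and 32.5% lower. The median log2 difference was -0.049 over the companion genes and -0.055 over all tested genes. Scaling to a common median left 3 of the companion genes higher.

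Among other scavenger receptors, 5 of 16 genes with a probe were tested, of which 2 were higher and 2 lower, with a median of -0.34. Cxcl16, which encodes a membrane-bound chemokine that also binds oxidised LDL, fell from 13.91 ± 0.098 to 13.46 ± 0.077 (SD, n = 4 per group; limma adjusted p = 0.00080), but did not pass on the authors' own rescaling (-0.18, adjusted p = 0.060). The class F genes moved apart: Scarf2 was 1.58-fold lower (log2 difference -0.66, SE 0.15, limma adjusted p = 0.0037) and Scarf1, first described as an endothelial receptor, 1.29-fold higher (0.37, adjusted p = 0.020). Both were smaller without background correction (-0.24 and 0.17) and with the authors' rescaling (-0.22 and 0.18), and Scarf2 was -1.003 against rat array 4 alone. The Scarf1 difference turned to -0.077 with scaling to a common median, and its call was lost without human array 4 (adjusted p = 0.057) and with replicate number as a block (adjusted p = 0.055). Colec12, a collectin receptor gene, was also called higher (0.66, SE 0.24, adjusted p = 0.041), with overlapping groups and a second probe at 0.065 (adjusted p = 0.81). Cd163, the haemoglobin-haptoglobin receptor gene, differed by -0.34 (adjusted p = 0.14).

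In the LDL receptor family, to which Lrp1 belongs, 5 of 9 genes with a probe were tested, 1 being higher and 2 lower, with a median of -0.29. Lrp12 rose from 12.28 ± 0.14 to 14.07 ± 0.076 (SD, n = 4 per group), a 3.45-fold difference (SE 0.088 on the log2 scale, limma adjusted p = 3.6e-07), and a second probe gave 4.72-fold. Sorl1, which encodes the sorting receptor SORLA, was 1.64-fold lower (adjusted p = 0.00010). Vldlr, the VLDL receptor gene, was 1.62-fold lower (-0.69, adjusted p = 0.014), with overlapping groups and a second probe at -0.42 (adjusted p = 0.12). Its difference was -0.20 without background correction and -0.17 with the authors' rescaling, both past the threshold, and -0.61 against rat array 4 alone, where the call was lost (adjusted p = 0.14). Lrp10 differed by 0.051 (SE 0.087, adjusted p = 0.65).

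Among adaptors, chaperones and cargo, 7 of 9 genes with a probe were tested, 2 being higher and 2 lower, with a median of 0.12. Lrpap1, which encodes the chaperone that escorts LRP1 through the secretory pathway, read 13.44 ± 0.048 with rat and 13.43 ± 0.028 with human IAPP (SD, n = 4 per group; limma adjusted p = 0.90). Dab2, an endocytic adaptor gene, rose 1.32-fold (adjusted p = 0.0018) and Lpl, which encodes lipoprotein lipase, 1.52-fold (adjusted p = 0.0033). Both calls were lost with scaling to a common median (adjusted p = 0.51 and 0.22). Thbs1, which encodes thrombospondin-1, a ligand of CD36, was 1.64-fold lower (adjusted p = 0.00016).

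Of the CD36 co-receptors and signalling partners, 15 of 16 genes with a probe were tested, 5 being higher and 6 lower, with a median of -0.064. Tlr4, the endotoxin receptor gene, fell from 11.94 ± 0.092 to 10.82 ± 0.051 (SD, n = 4 per group), a 2.18-fold difference (limma adjusted p = 1.9e-06), and a second probe gave -0.58 (adjusted p = 0.060). Tlr6, which pairs with TLR4 and CD36, differed by -0.064 (SE 0.085, adjusted p = 0.55). The tetraspanin gene Cd9 was 1.77-fold higher (adjusted p = 5.8e-05) and the integrin gene Itgb1 1.49-fold higher (adjusted p = 0.00024). A second Itgb1 probe gave 0.21 (adjusted p = 0.29), and scaling to a common median ended the Itgb1 call (adjusted p = 0.64).

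Genes for lipid handling after uptake were tested for 10 of 12 with a probe, 4 being higher and 3 lower, with a median of -0.031. Pparg, which encodes a lipid-sensing nuclear receptor that drives Cd36 transcription in macrophages, was 2.42-fold higher (limma adjusted p = 1.8e-06), with 1.92-fold on a second probe. The Cd36 probe was undetected in both groups, so whether Cd36 changed could not be read from it. Abcg1, a cholesterol exporter gene, fell from 8.25 ± 0.055 to 6.23 ± 0.41 (SD, n = 4 per group; adjusted p = 1.2e-05) and was detected on 2 of 4 human arrays. This log2 difference of -2.02 was -0.68 without background correction and -0.64 with the authors' rescaling, both past the threshold. Plin2, which encodes a lipid droplet coat protein, was 1.37-fold higher (adjusted p = 0.00052), a call lost with scaling to a common median (adjusted p = 0.47).

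**Figure D4:**
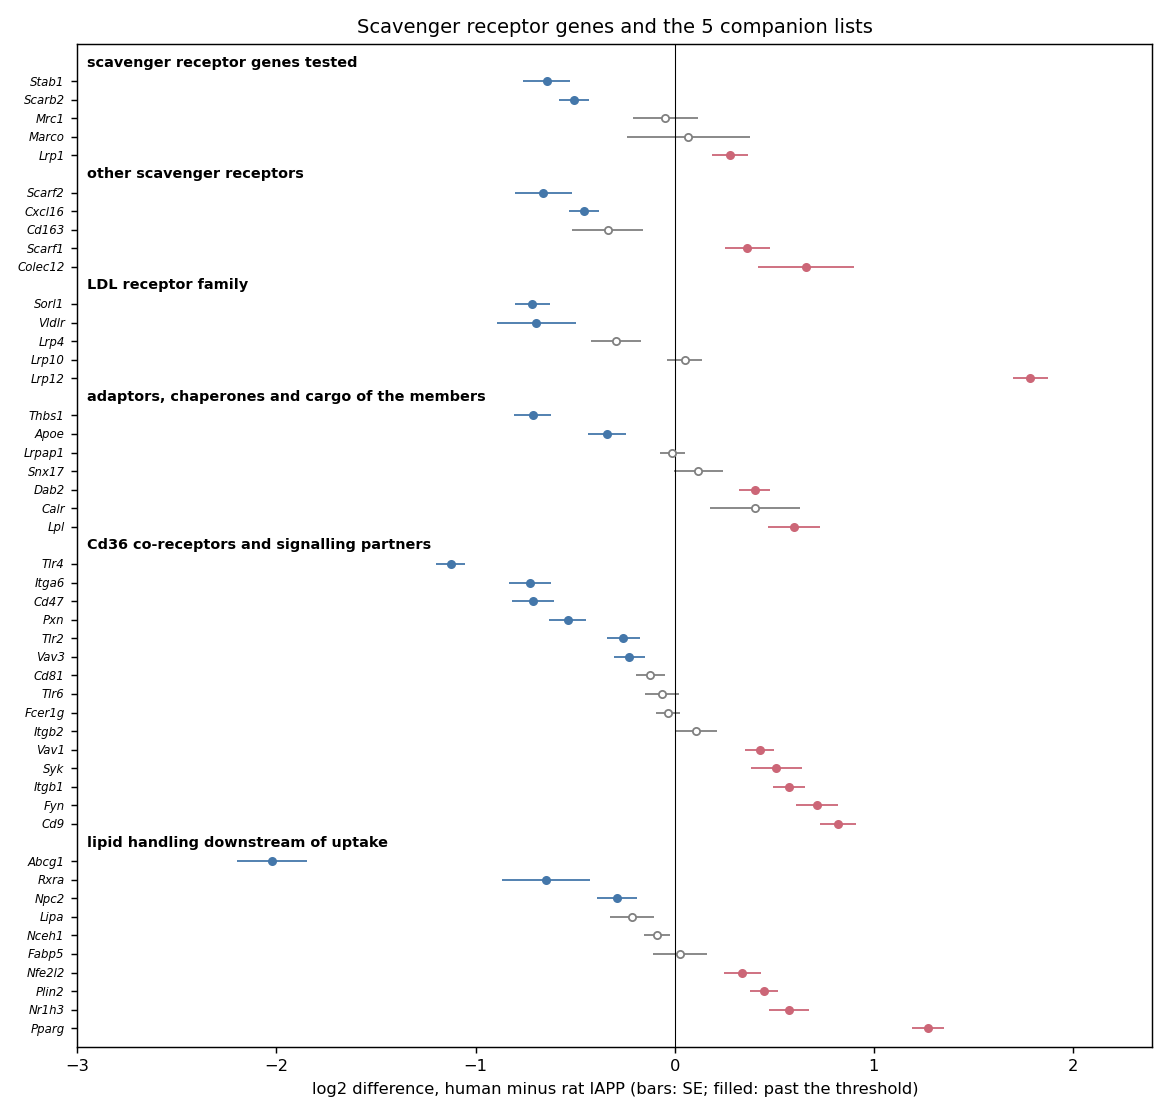
Log2 difference between human and rat IAPP (horizontal axis, bars SE) for the 5 tested scavenger receptor genes and the 42 tested genes of the 5 companion lists; red marks genes that were higher, blue those that were lower and open grey those that did not pass. Each list holds points on both sides of 0, from -2.02 for Abcg1, whose size depends on the background correction, to 1.79 for Lrp12.

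The genes whose log2 intensity over the 8 arrays was most like that of Stab1 were Tirap, Mprip and Ndufs7, with Pearson correlations of 0.991, 0.989 and 0.986. Those most like Lrp1 were Xpo6, Cd247 and Sec23b, with correlations of 0.983, 0.959 and 0.957. These are descriptions over 8 arrays that share the difference between groups and array brightness.

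Of the 7 macrophage markers, 1 was higher and 3 were lower, beside 56.4% of all tested genes that passed. Lyz2, the lysozyme gene, was not called from a probe at the top of the intensity range. Dimmer probes of it gave -0.44 (limma adjusted p = 0.010) and -0.034 (adjusted p = 0.77). Aif1 was also not called, while a second probe of it gave -0.39 (adjusted p = 0.0071). Cd14, the endotoxin co-receptor gene, was 1.53-fold higher (limma adjusted p = 4.4e-05). Adgre1, a macrophage surface marker gene, was 1.39-fold lower (adjusted p = 0.00069) but did not pass on the authors' own rescaling (adjusted p = 0.17). Further probes of Adgre1 gave log2 differences of -0.76 (adjusted p = 0.0024) and -0.70 (adjusted p = 6.4e-05). Fcgr1, a high-affinity Fc receptor gene, was 3.09-fold lower (-1.63, adjusted p = 7.4e-05), a difference that was -0.98 without background correction and -0.94 with the authors' rescaling. Mertk, which encodes a receptor for dying cells, was 2.27-fold lower (adjusted p = 3.6e-05). The summed normalised intensity of the macrophage list ran from 202438 to 217747 with rat and from 208696 to 217152 with human IAPP. The brightest Lyz2 probe and that of Cd14 reached 60000 raw units on at least 1 array. Without these 2 of the list's 13 probes, the sum ran from 99545 to 114479 with rat and from 83932 to 91720 with human IAPP. This second sum leaves out Cd14, the only marker called higher, so its fall depends on which probes were removed. Of the neutrophil list, 3 of 6 genes were detected on at least 1 array, with sums of 2355 to 2731 and 2131 to 3099, and Elane was called 1.36-fold higher (adjusted p = 0.047), with detection on 1 rat and 3 human arrays and a call lost in 15 of 20 alternatives. The part of these markers in the differences of Stab1, Scarb2 and Lrp1 was not tested.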

How the data were processed

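Per the labels' protocols, RNA was purified on columns and amplified into biotin-labelled cRNA. The authors deposited linear, non-normalised probe intensity values, each followed by its detection p-value, per the file headers. The sources used here name no scanner, slide or bead summary. Another table that the authors deposited is a linear rescaling of these intensity values, array by array. Its scale is linear and uncentred and its direction that of the signal, the method is unknown, and its column medians were 352.6, 356.6, 353.8 and 361.1 (rat) and 361.8, 362.9, 359.2 and 367.7 (human). It served only as an alternative.

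Groups came from the sample descriptions. The detection column served to infer the negative controls for normexp background correction (offset 16), and arrays were quantile normalised (limma 3.58.1, R 4.3.3). Of 25697 probes, 11451 were tested. Names came from the platform annotation (23978 probes with 1 symbol, 0 with several, 1719 unlisted), updated through RefSeq for 23962. The contrast human minus rat used lmFit and eBayes with no covariate. No pair of arrays held identical values, since the log2 differences of the closest pair had an SD of 0.214. The steps were tested on simulated data. The number of arrays limits the precision.

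The text names all 10 members, up to 3 called genes with the smallest p per companion list, called markers, and the 3 genes most correlated with the members that rose and fell most. Colec12, Cd163, Lrp10, Lrpap1 and Tlr6 were named after their values were seen. The markers Lyz2 and Aif1 were also named, although neither was called. Members and lists were chosen with earlier results of these data known. Background, normalisation, filters, variance prior, array weights, replicate block, threshold, gene summary and left-out arrays were varied.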

Additional observations from a re-analysis of the deposited data

Results flagged for a closer look

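In 3 of 60 groups of 4 arrays looked at, 1 array stood apart from the other 3 (Dixon's test), and chance flags about 1 in 20. The Stab1 value of human array 4 was 10.23, below 10.47 to 10.50 on the other human arrays. The Scarf1 value of rat array 4 was 7.68, below 7.98 to 8.03. The Fcgr1 value of rat array 4 was 9.55, below 9.80 to 9.83.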

How the results depend on the processing

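The calls of Stab1 and Scarb2 held in all 21 alternatives, and the number of lower member genes stayed at 2. The count of higher member probes and genes, which is Lrp1 alone, went from 1 to 0 without background correction, with scaling to a common median, with no filter on detection, with a variance trend and robust prior, at a threshold of 0.01 and against rat array 4 alone, a setting chosen after seeing the data. On leaving out each array it ranged from 0 to 1. No sign change came with a call. Lrp1 was -0.15 and Marco -0.13 with median scaling, and Scarf1 -0.077. With cyclic loess Marco was -0.0022 and Mrc1 0.030, and with array weights Marco was -0.0066. With left-out arrays, Marco ranged from -0.17 to 0.33 and Mrc1 from -0.17 to 0.069. Companion genes that were higher numbered 3 with median scaling, and those lower 9 with the authors' values and 9 at a threshold of 0.01. Median scaling moved the median of all probes to -0.39 and the share of higher calls from 45.1% to 15.6%, and the authors' values moved that share to 55.4%. Of 437 values of the 20 named companion and marker genes, 410 kept direction and call, 26 lost the call and 1 changed sign; the cause was not tested. Replicate number as a block left 2 lower and 1 higher member probes. That fit made 5891 calls over all probes, against 6234 without the block. The numbers were not taken as pairs, because the labels do not say that they mark a shared batch. Same-numbered arrays deviated together only weakly (r = -0.11, -0.0061, 0.17 and -0.016), and only rat array 3 matched its own number best. The authors' values raised Dab2 from 0.40 to 0.66 and Cd14 from 0.62 to 0.98, and Lpl went from 0.60 to 0.98 against rat array 4 alone. Signals near background limit Lrp1, Marco and Abcg1, and likewise Scarf1, Scarf2, Colec12, Cd163, Vldlr and Elane.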
